A study of Mus musculus with 12 samples.

Results

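Oxidative phosphorylation is carried out in the inner mitochondrial membrane by 4 proton-pumping or electron-passing complexes and the ATP synthase, and most of their subunits are made from nuclear genes. The genes described here are those whose names begin with Nduf followed by a, b, c, s or v and a digit (complex I), with Uqcr (complex III), with Cox4 to Cox8 (complex IV) or with Atp5 (complex V), without names marked as pseudogenes and without genes on the mitochondrial chromosome. The rule found 80 of the 48709 listed genes. Of these, 73 had a p-value in every comparison, among 17833 tested genes, and 7 were listed at 0 throughout. The tested members comprised 36 genes of complex I, 8 of complex III, 12 of complex IV and 17 of complex V. Grouping follows the names, so Ndufa4, whose protein is now counted with complex IV, stands under complex I. Likewise Atp5s and Atp5sl (RefSeq Dmac2l and Dmac2) stand under complex V, although their proteins are not subunits of the ATP synthase.

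Complex I takes electrons from NADH, complex III passes them from ubiquinol to cytochrome c, complex IV hands them to oxygen, and complex V, the ATP synthase, uses the proton gradient they build. In CD8 T cells the pathway is known for supporting quiescent and memory cells and for being needed when a cell leaves rest. A few subunits of complexes I, III, IV and V are made inside the mitochondrion from its own DNA, so a full complex needs products of both genomes.

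RNA came from CD8 T cells of wild-type C57BL/6 mice, labelled postnatal day 91, each bearing a transplanted TRAMP-C2 tumour, grown from a mouse prostate cancer line. The controls were given isotype antibody. The other 3 arms received anti-CTLA-4 alone, the DANA form of anti-PD-1 alone (its altered Fc part does not bind Fc receptors), or both antibodies at once, called the combination. The sample labels place the doses on days 3, 6 and 9, and the series text gives day 8 for the last of them. On day 28, draining lymph nodes were taken and sorted for live CD45+ CD3+ CD8+ cells that were Spas-1+ and Spas-2-, Spas-1 being an antigen of this tumour. Each arm was 1 pool of 5 mice from which 3 libraries were made, 12 in all, with 0.25 ng of RNA and 21 cycles of pre-amplification. Arm and pool cannot be told apart, and the p-values reflect differences between splits of a pool, not between mice. In bulk RNA, fewer cells of a type and less RNA per cell cannot be told apart either.

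Each of the authors' 3 deposited tables compares 1 treatment with isotype and gives, per gene, the larger of the 2 group means in RPKM (reads scaled by exon length and library size), a log2 fold change, a p-value and a false discovery rate (FDR, the Benjamini-Hochberg adjusted p over all listed genes). The isotype mean could be read directly for 21 tested members. The 3 comparisons share the isotype libraries. Library totals, recovered from the whole-read steps of the group means, lay between 14729713 reads (an anti-CTLA-4 library) and 42556869 (a combination library), and library numbers could not be tied to them. All markers of CD8 T cells examined (Cd3d, Cd3e, Cd3g, Cd8a, Cd8b1, Trac) were abundant, while transcripts of other cells were present too. Among B cell genes, Cd74 stood at 156.8 RPKM and Igkc at 90.2 in isotype, and Ms4a1 was called higher after anti-CTLA-4 in the authors' deposited table (log2 fold change 6.03, FDR 0.0255). Cd4 was also called higher after anti-CTLA-4 and C1qa lower, Csf1r higher after anti-PD-1 DANA and Lyz2 lower after the combination. Markers of a cell type did not all move together, and the following values were not called. After anti-CTLA-4 the log2 fold change was -0.67 for Cd79b (B cells) and -0.11 for Foxp3 (CD4 T cells). Of the myeloid genes, Cd68 had 5.33, Lyz2 0.02 and Csf1r -1.59 there. After anti-PD-1 DANA, C1qa had -1.72, Lyz2 -0.62 and Cd68 6.34. After the combination, Csf1r had 4.04, C1qa -4.41 and Cd68 -0.45. Ncr1 (NK cells) and Krt8 (epithelium) were listed at 0. Other markers of those cells were not absent: Epcam reached 4.73 RPKM and Klrb1c 1.39 RPKM after anti-PD-1 DANA, neither called (FDR 0.0556 and 0.207 in the authors' deposited table). Their part in the values of the respiratory genes was not tested.

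The promoters of 4 genes are shown because their transcripts carry the results that follow: Ndufc2, Atp5e and Atp5s were the members called in any comparison, and Atp5h had an unadjusted p under 0.05 after both single antibodies. Each is 300 bases of RefSeq sequence on GRCm38.p6, 5′ to 3′ on the gene's own strand, from 250 bases before to 50 after the annotated start, and capitals mark motif matches. They are read from chr7:97399753-97400052 (plus strand) for Ndufc2, chr2:174464052-174464351 (minus) for Atp5e, chr12:69724695-69724994 (plus) for Atp5s and chr11:115419870-115420169 (minus) for Atp5h.
Ndufc2: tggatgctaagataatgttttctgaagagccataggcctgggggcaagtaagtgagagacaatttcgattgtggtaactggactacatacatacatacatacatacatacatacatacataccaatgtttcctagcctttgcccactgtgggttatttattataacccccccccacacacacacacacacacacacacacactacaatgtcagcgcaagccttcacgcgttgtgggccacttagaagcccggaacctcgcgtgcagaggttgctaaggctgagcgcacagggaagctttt
Atp5e: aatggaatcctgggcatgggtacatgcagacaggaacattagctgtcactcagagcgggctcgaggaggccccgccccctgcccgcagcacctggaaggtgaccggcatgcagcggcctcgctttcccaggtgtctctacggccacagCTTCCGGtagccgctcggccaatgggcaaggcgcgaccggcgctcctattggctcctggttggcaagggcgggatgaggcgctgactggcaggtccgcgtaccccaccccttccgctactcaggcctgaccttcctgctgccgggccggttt
Atp5s: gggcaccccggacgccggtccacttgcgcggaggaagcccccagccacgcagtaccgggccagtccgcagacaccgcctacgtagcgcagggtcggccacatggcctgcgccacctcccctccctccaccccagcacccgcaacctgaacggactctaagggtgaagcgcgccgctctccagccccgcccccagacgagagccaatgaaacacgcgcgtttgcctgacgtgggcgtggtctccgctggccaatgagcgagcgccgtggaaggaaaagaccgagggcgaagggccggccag
Atp5h: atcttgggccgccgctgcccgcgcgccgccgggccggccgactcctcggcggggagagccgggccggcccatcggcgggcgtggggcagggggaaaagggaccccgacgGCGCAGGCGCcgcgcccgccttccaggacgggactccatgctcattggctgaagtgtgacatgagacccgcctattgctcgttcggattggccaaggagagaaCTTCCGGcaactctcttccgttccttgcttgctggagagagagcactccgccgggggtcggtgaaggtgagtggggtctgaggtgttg
Motifs of 3 factors known to drive respiratory genes were searched on both strands. They were the NRF-1 motif (GCGCA, 1 free base, then GCGC), the ETS core that GABP binds (CCGGAAG) and the YY1 motif (AA, 1 free base, then ATGGCGGC). No motif contains another. Atp5h held an NRF-1 and an ETS match, Atp5e held an ETS match on the reverse strand (CTTCCGG as printed), and Ndufc2 and Atp5s held no match in these windows. Of the 66 members with a RefSeq promoter, 14 (21.2%) held NRF-1, 13 (19.7%) the ETS core and 5 (7.58%) YY1. Over all 32851 promoters of the same length the shares were 4.60%, 8.86% and 0.986%. At least 1 of the 3 was found in 28 members (42.4%), against 13.3% of all promoters. The sets are unlike: each member has 1 promoter, the nearest to its listed gene start. The 32851 were limited neither to 1 per gene nor to expressed genes. A match is a description of letters, and nothing here measured binding.

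Most members were abundant transcripts. Taking the largest group mean of each gene, which need not hold in every arm, the median over members was 66.1 RPKM, above 97.1% of tested genes, whose own median was 2.47. By complex the median was 45.2 RPKM for complex I, 60.0 for III, 109.8 for IV and 81.1 for V. Of the 73 tested members, 72 reached 5 RPKM in at least 1 arm and 65 reached 20. The largest was Ndufa2, an accessory subunit of the NADH-oxidising arm, at 403.6 RPKM in the combination. Atp5l, subunit g of the ATP synthase membrane part, reached 294.7 RPKM there and Cox6a1 reached 280.3. Other abundant members, by largest group mean in the authors' deposited tables, were Cox7a2l (223.0), Ndufa1 (221.1), Cox8a (205.1), Uqcrh (205.3) and Uqcr11 (145.3 RPKM). Isotype was the highest of the 4 arms for 11 members, among them Ndufa10 at 47.3 RPKM and Ndufs1 at 18.8.

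**Figure D1:**
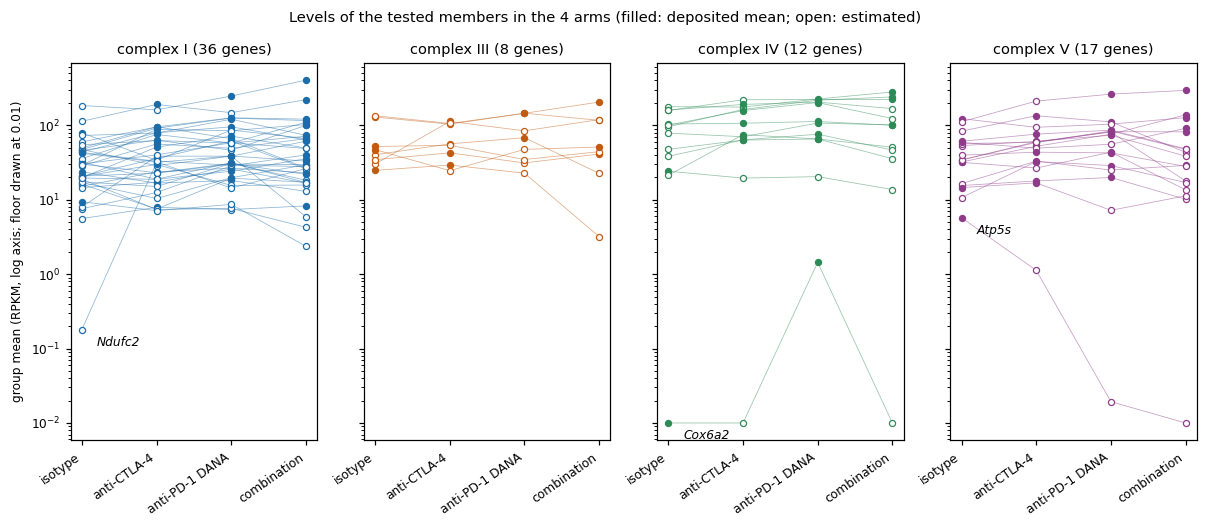
Group mean of each tested member in RPKM (log axis, with means under 0.01 drawn at 0.01) in the 4 arms, 1 line per gene and 1 panel per complex, filled points for deposited means and open points for means estimated from the fold change. Ndufc2 climbs from an estimated 0.18 RPKM in isotype to between 31.9 and 38.7 in its treated arms, while Atp5s starts at 5.72 and falls to the foot of its panel.

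Where a complex IV subunit exists as tissue-specific paralogs, these cells held the form known as ubiquitous. Cox4i1 reached 240.6 RPKM while Cox4i2, a lung and hypoxia form, was listed at 0. Cox6b1 reached 202.2 RPKM against 0 for Cox6b2, a testis form. Cox7a2 reached 107.1 RPKM with Cox7a1, a muscle form, at 0, and Cox7b reached 74.8 with Cox7b2 at 0. Cox8a stood beside Cox8b and Cox8c, both listed at 0. Ndufa4 reached 95.4 RPKM and its hypoxia-induced relative Ndufa4l2 was listed at 0. Cox6a2, a heart and muscle form beside Cox6a1, was the exception at low level, listed at 0 in the anti-CTLA-4 and combination tables and at 1.44 RPKM after anti-PD-1 DANA. That mean was made of 0, 77 and 2 reads in the 3 anti-PD-1 DANA libraries, so 97.9% of it came from 1 library. Its log2 fold change was 6.94 with an implied standard error of 3.01 and was not called (FDR 0.345 in the authors' deposited table). Of the ATP synthase genes, 3 encode the same mature c-ring subunit. By largest group mean Atp5g2 had 84.1 RPKM (anti-PD-1 DANA), Atp5g3 33.0 (anti-CTLA-4) and Atp5g1 19.9 (anti-PD-1 DANA). RPKM divides by exon length, here 1675, 2181 and 4912 bases, so this order need not hold for reads. Of the 50-base exon windows of Atp5g2, 38.3% also occur in other transcripts. None of these 3 genes was called in any comparison.

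Few members were called after treatment, and a member without a call is not thereby shown to be unchanged. A gene is called when the authors' FDR is under 0.05. After anti-CTLA-4, 1 of 73 members was called, where 4.23% of all tested genes were. After anti-PD-1 DANA 2 members were called (all genes 3.75%), and after the combination 3 (all genes 7.53%). Among genes with a larger mean of 5 RPKM or more the shares over all genes were 7.5%, 7.26% and 14.6%, and the same 1, 2 and 3 members of 72 were called. Unadjusted p-values under 0.05 were found for 6, 5 and 9 members, against 22.9%, 23.1% and 23.2% of all tested genes. Standard errors below are those implied by the deposited fold change and p-value. At the members' median error of 0.95 a log2 fold change of 3.18, 3.21 or 3.02 would have been needed for a call in the 3 comparisons in the order above, so for members with a larger error than that, smaller changes were not detectable.

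Ndufc2, an accessory subunit of the membrane arm of complex I, rose in all 3 comparisons and was the only member called in each. The gene lies on chromosome 7 at 97400003 to 97407802 of GRCm38, plus strand. In the anti-CTLA-4 libraries 163, 713 and 704 reads gave 14.7, 49.5 and 31.6 RPKM, a mean of 31.9 ± 17.4 (SD, n = 3). In the anti-PD-1 DANA libraries 358, 1070 and 1047 reads gave 19.6, 53.0 and 43.5 RPKM, a mean of 38.7 ± 17.2 (SD, n = 3). The combination libraries held 436, 1212 and 817 reads, or 23.5, 50.2 and 25.5 RPKM, a mean of 33.1 ± 14.9 (SD, n = 3). All 9 treated libraries therefore carried the transcript, with no single library giving more than 51.7% of its arm's mean, and the 3 treated arms overlapped. The isotype mean cannot be read from the tables and was estimated at 0.18 RPKM from the fold change and the library scaling. That scaling was set on genes of 5 RPKM or more in isotype, so the estimate is uncertain. The log2 fold change of Ndufc2 was 6.52 ± 1.46 (SE) after anti-CTLA-4 (FDR 0.00428), 6.92 ± 1.46 after anti-PD-1 DANA (FDR 0.00248) and 7.42 ± 1.46 after the combination (FDR 0.00042) in the authors' deposited tables. The 95% intervals ran from 3.65 to 9.39, from 4.06 to 9.79 and from 4.55 to 10.29. All 3 values share the isotype pool, so they are not independent of each other. The only annotated gene overlapping Ndufc2 is the processed pseudogene Gm16053, listed at 0, and no 50-base window of its exons occurs in another transcript.

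Atp5e and Atp5s were the other called members. Atp5e, the epsilon subunit in the central stalk of F1 (chromosome 2, 174461072 to 174464105, minus strand), rose after the combination. Its larger group mean was 52.4 RPKM in the anti-CTLA-4 table, 75.9 in the anti-PD-1 DANA table and 138.4 in the combination table. The log2 fold change was -0.24 ± 0.60, 0.43 ± 0.60 and 2.0 ± 0.60 (SE) in that order, with an FDR of 0.0382 for the combination in the authors' deposited table. Atp5s (RefSeq Dmac2l, chromosome 12, 69724962 to 69744658, plus strand) carries an ATP synthase name, although its protein is not a subunit of the enzyme. It stood at 5.72 RPKM in isotype, the highest of the 4 arms, and fell after anti-PD-1 DANA (-9.02 ± 2.39, FDR 0.0208) and after the combination (-11.40 ± 3.28, FDR 0.0259) in the authors' deposited tables. After anti-CTLA-4 its value was -3.29 ± 2.21 (FDR 1.0) in the authors' deposited table. Its reads per isotype library could not be recovered, so whether its isotype mean rests on 1 library was not tested.

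Atp5h, subunit d of the peripheral stalk, was the member with an unadjusted p under 0.05 after both single antibodies that was never called. Its isotype mean was 122.8 RPKM. The log2 fold change was -1.33 ± 0.49 after anti-CTLA-4 (FDR 0.167), -1.06 ± 0.49 after anti-PD-1 DANA (FDR 0.431) and -0.06 ± 0.49 after the combination (FDR 1.0) in the authors' deposited tables. Of its 50-base exon windows 19.9% also occur in other transcripts, mostly the processed pseudogene Gm10250, so its count is uncertain. Ndufa10, an accessory subunit of the membrane arm of complex I, lay just outside the call after the combination, at -3.11 ± 0.97 with an FDR of 0.0504 in the authors' deposited table.

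**Figure D2:**
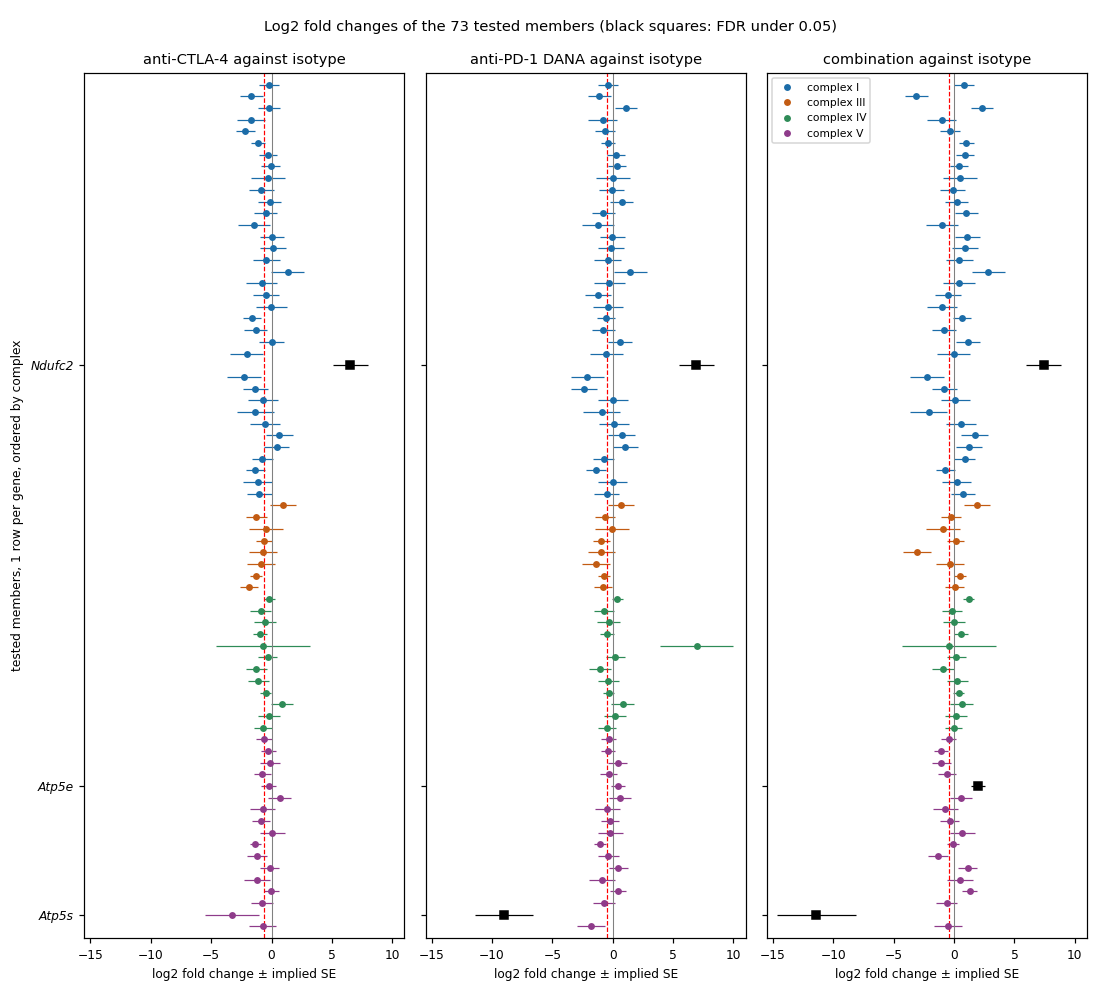
Log2 fold change against isotype of the 73 tested members (rows, in order of complex and colour, with the called genes labelled) in the 3 comparisons (panels), with horizontal bars for 1 implied standard error, black squares for an FDR under 0.05 and a dashed line at the median of all tested genes. Ndufc2 stands between 6.52 and 7.42 in all 3, Atp5s at -9.02 after anti-PD-1 DANA and -11.40 after the combination, and Atp5e at 2.0 after the combination.

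In complex I, the 7 core subunits that carry electrons had a median log2 fold change of -1.15 after anti-CTLA-4, -0.74 after anti-PD-1 DANA and 0.09 after the combination, and none was called. On library size these were -0.21, 0.079 and 0.20. Ndufs1, the large iron-sulphur subunit, had the lowest core values after anti-CTLA-4 (-2.29 ± 1.38) and the combination (-2.25 ± 1.38). The 29 accessory genes had medians of -0.45, -0.39 and 0.49, or 0.50, 0.42 and 0.60 on library size. After Ndufc2 the highest accessory values in the combination were those of Ndufb3 (2.84 ± 1.38) and Ndufa11 (2.30 ± 0.89), neither called. Reads of Ndufb3 could be recovered in both single-antibody arms: 20.4, 28.4 and 64.5 RPKM after anti-CTLA-4, and 12.1, 64.3 and 39.1 after anti-PD-1 DANA. Splits of 1 pool thus differed by several-fold for a gene at this level. Ndufa5, chosen after its values were seen because all 3 treated arms were recovered, gave 12.7, 29.7 and 28.7 RPKM after anti-CTLA-4, 29.5, 9.30 and 40.8 after anti-PD-1 DANA and 31.3, 12.6 and 26.0 after the combination, and its arms overlapped.

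In complex III no member was called. Its hinge protein gene Uqcrh had a log2 fold change of -1.29 ± 0.48 after anti-CTLA-4 (FDR 0.177 in the authors' deposited table), -0.71 ± 0.48 after anti-PD-1 DANA and 0.51 ± 0.48 after the combination. The small subunit gene Uqcr10 had 0.95 ± 1.09, 0.67 ± 1.09 and 1.88 ± 1.09. The other small subunit gene named for its abundance, Uqcr11, had an isotype mean of 129.0 RPKM and values of -1.26, -0.64 and -0.25. Complex IV also held no called member. Cox7a2l, whose product joins complexes III and IV into supercomplexes, had the smallest implied standard error of the named members. Its 95% intervals were -1.36 to 0.43, -1.21 to 0.57 and -0.51 to 1.27. Of its 50-base exon windows 13.8% also occur in the processed pseudogene Gm6969, an uncertainty that the standard error does not measure. Cox4i1, the largest nuclear-encoded subunit, had -0.17 ± 0.46, 0.36 ± 0.46 and 1.23 ± 0.46 (FDR 0.15 after the combination in the authors' deposited table). Among F1 genes of the ATP synthase, Atp5e was higher after the combination while the other 4 had values below 0. Atp5b, the catalytic beta subunit, was at -1.05 ± 0.59 there (FDR 0.765).

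The members' median log2 fold change was -0.70 after anti-CTLA-4, -0.37 after anti-PD-1 DANA and 0.17 after the combination. Over all tested genes the medians were -0.62, -0.45 and -0.42, and over tested genes of 20 to 100 RPKM they were -0.88, -0.81 and -0.71. Values above 0 were held by 11, 23 and 40 of the 73 members. These signs depend on the authors' scaling: for genes whose group means are both known, the ratio of means in RPKM lay 0.94, 0.82 and 0.11 above the deposited log2 fold change. Moved by that amount to library size, the members' medians were 0.25, 0.44 and 0.28, and 49, 57 and 45 members lay above 0 (67.1%, 78.1% and 61.6%). All tested genes then had medians of 0.33, 0.36 and -0.31, with 66.0%, 66.0% and 44.3% above 0. By complex, I, III, IV and V, the deposited medians were -0.63, -0.80, -0.61 and -0.74 after anti-CTLA-4 and -0.40, -0.75, -0.34 and -0.35 after anti-PD-1 DANA. After the combination they were 0.44, -0.10, 0.18 and -0.44. Values below 0 in all 3 comparisons were held by 31 members, and above 0 in all 3 by 8, but by 9 and 33 on library size.

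**Figure D3:**
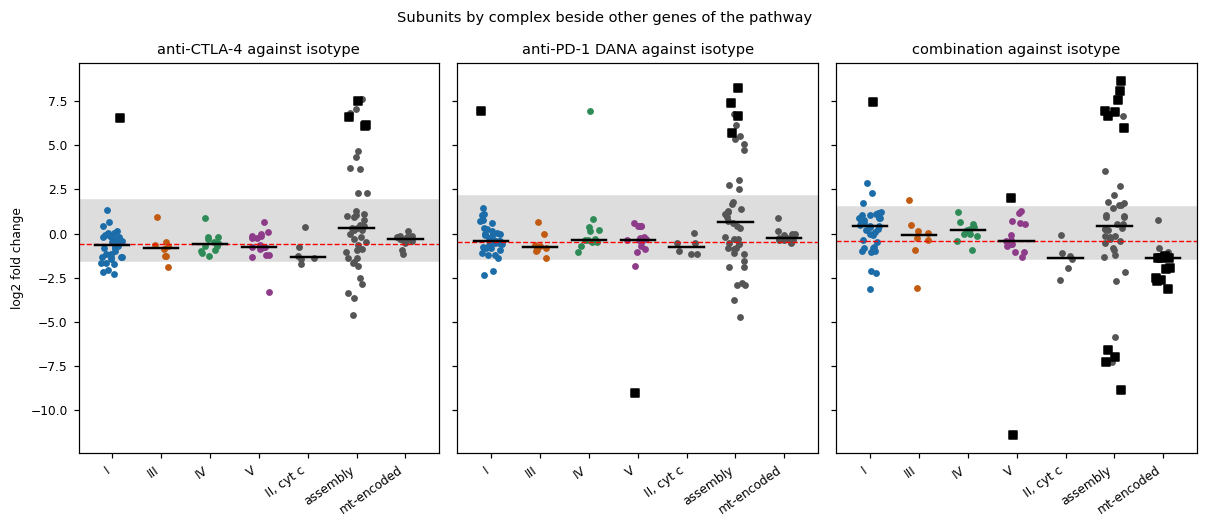
Log2 fold change of each tested member by complex, beside genes of complex II and cytochrome c, assembly factors and mitochondrially encoded genes, in the 3 comparisons, with black squares for an FDR under 0.05, short bars for medians, and a dashed line and grey band for the median and middle 50% of all tested genes. In the combination panel the complex I median is 0.44, the complex V median -0.44 and the mitochondrially encoded median -1.38, where 10 of 13 genes are called. The group of complex II and cytochrome c also holds Cyc1, a gene of complex III.

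Differences between treatments were computed as differences of log2 fold changes, with an upper bound for their error because the isotype mean is common to both. After Benjamini-Hochberg adjustment no member was called in any of the 3 differences, where 0.0561% of all tested genes were for the combination minus anti-CTLA-4, 0.0393% for the combination minus anti-PD-1 DANA and 0.0% for anti-CTLA-4 minus anti-PD-1 DANA. Unadjusted p-values under 0.05 were held by 7 members in the first difference, against 7.81% of all genes, and by none in the others, where 6.48% and 4.37% of all genes held one. They were Atp5e, Cox4i1, Ndufa11, Ndufa2, Ndufb7 and Uqcrh, higher in the combination, and Atp5s, lower. The largest error-scaled differences belonged to Uqcrh (1.79 ± 0.68) and Atp5e (2.25 ± 0.85). With an error that assumes equal variances of the group means, Atp5e (Benjamini-Hochberg FDR 0.0201), Ndufa2 (FDR 0.0254) and Uqcrh (FDR 0.0192) were called for the combination minus anti-CTLA-4, where 1.98% of all genes were. On library size with the same error no member was called (2.86% of all genes, most of them lower), and at the upper bound of the error the 3 had FDRs between 0.482 and 0.497. Members' median difference for that contrast was 0.76 on the authors' scale (all tested genes 0.25) and -0.08 on library size (all tested genes -0.58).

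Within the members the log2 fold change went with exon length as a description: across the 73 genes Spearman's rho was -0.27, -0.35 and -0.41 in the 3 comparisons, and -0.58, -0.54 and -0.60 over the 36 complex I genes. Complexes III and IV had negative values and complex V did not in every comparison: rho was -0.24, -0.83 and -0.29 over the 8 genes of complex III, -0.014, -0.31 and -0.091 over the 12 of complex IV, and 0.52, 0.24 and -0.056 over the 17 of complex V. These points share libraries and an isotype pool, and genes are not independent. Over all tested genes of 5 RPKM or more rho was -0.12, -0.19 and -0.14. After the combination the 37 members of at most 1675 exon bases had a median of 0.51 and the 36 longer ones -0.46. The same division of all tested genes of 5 RPKM or more gave -0.034 and -0.81. Short members lay on both sides of 0 after the combination. Ndufa1 had 0.86, Ndufa2 1.03, Ndufc2 7.42 and Uqcr10 1.88, but Ndufb6 (659 bases) had -1.01, Uqcrb (876 bases) -0.94 and Uqcr11 (641 bases) -0.25.

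**Figure D4:**
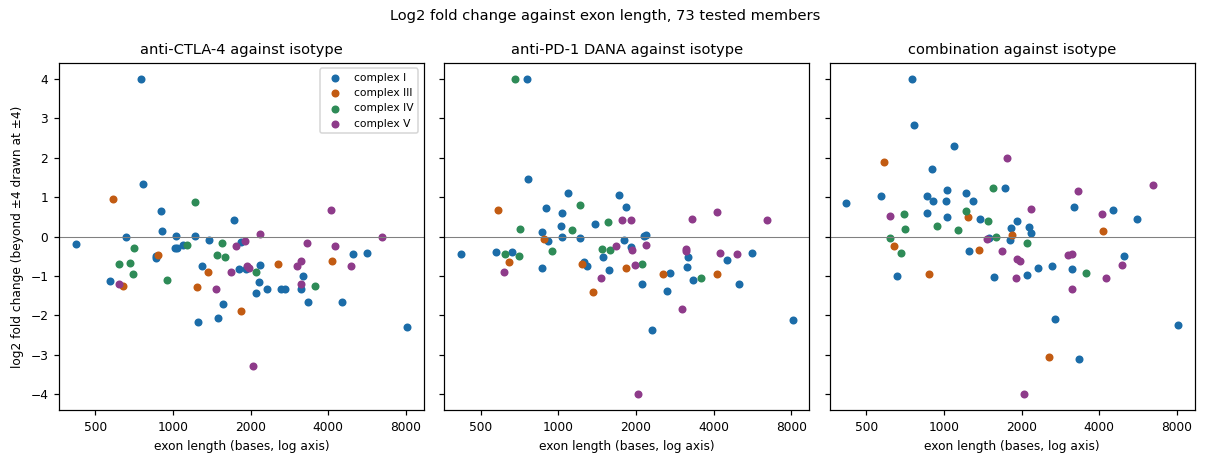
Log2 fold change of each tested member against its exon length in bases (log axis), coloured by complex, in the 3 comparisons, with values beyond 4 or -4 drawn there. By median, shorter members lie higher in the combination panel (0.51 up to 1675 bases and -0.46 above), with members of both kinds on either side of 0.

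Genes that serve the same complexes were read from lists beside the members. None of the 6 genes in the list for complex II and cytochrome c was called, with medians of -1.32, -0.77 and -1.37. That list includes Cyc1, whose protein, cytochrome c1, belongs to complex III although its name lies outside the rule. Cyc1 had an isotype mean of 60.0 RPKM and log2 fold changes of -1.38, -1.15 and -2.63. Of 44 assembly factors, 4 rose after anti-CTLA-4 and 4 after anti-PD-1 DANA with none falling, and after the combination 7 rose and 4 fell. Over all tested genes 2.74%, 2.43% and 3.94% were called higher in the 3 comparisons and 1.49%, 1.32% and 3.59% lower. Tmem126b and Sdhaf1, assembly factors of complexes I and II, rose in all 3. Timmdc1, a complex I assembly factor, rose after anti-CTLA-4 and the combination, and Lyrm7, a complex III assembly factor, after anti-PD-1 DANA. The 4 that fell after the combination were Foxred1 (-6.96), Ndufaf2 (-7.24) and Ndufaf3 (-6.59), which serve complex I, and Taco1 (-8.87), a translational activator for complex IV, in the authors' deposited table. Several called factors had low means: Lyrm7 4.18 RPKM after anti-PD-1 DANA, and Timmdc1 3.49, Atpaf1 2.81 and Nubpl 1.40 after the combination. Ndufaf2 and Taco1 stood higher, at 16.6 and 14.2 RPKM in isotype. Of drawn genes with recovered reads and means of 1 to 5 RPKM, 60.4% took 80% or more from 1 library. Of those with means of 5 RPKM or more, 38.4% did. Whether the calls of these factors, or of the regulators that follow, rest on 1 library was not tested. Among 13 regulators of mitochondrial gene expression 2 fell after the combination: Polrmt, the mitochondrial RNA polymerase (-8.56, FDR 0.00042), and Gabpa, the DNA-binding part of GABP (-5.42, FDR 0.0241), in the authors' deposited table. Gabpa overlaps the member Atp5j on the opposite strand, and 7.72% of Atp5j's 50-base exon windows are shared with it, where reads cannot be told apart without strand. Of the 13 protein genes on the mitochondrial chromosome none was called after either single antibody, and 10 fell after the combination, with a median of -1.38 (-1.27 on library size). The nuclear members' median in that comparison was 0.17, with Atp5s called lower and Ndufc2 and Atp5e higher. The difference between the nuclear and mitochondrial sets was not tested.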

How the data were processed

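RNA was measured in 12 libraries, 3 splits of 1 pool per arm. CLC Genomics Workbench mapped and counted the reads, per the labels' protocols, with no version named. The submitters' processing notes name the build GRCm38.p5. The authors deposited 3 tables of p-values with their adjusted forms, log2 fold changes, the larger group mean in RPKM and the same change as a signed score, which was not used. The RPKM unit was read from the deposited values, since the header names none. The model and scaling of the authors' test are not stated in the labels or files used.

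Standard errors were implied from each log2 fold change and p-value by the normal quantile, with 95% intervals from them. The error of a difference between treatments was the root of the summed squares, and alternatively the mean of both errors where the 3 errors lay within 5% of each other. An isotype mean was taken as known where 2 or more tables held the same larger mean. Other isotype means were estimated with the scaling shift, whose 5th and 95th percentiles of log2 error over the 824 genes that set it were -0.16 and 0.09. Those genes had an isotype mean of 5 RPKM or more, and the error at lower means was not checked. Library totals were recovered from group means of 10 decimals, and reads per library from the unique whole-number solution, tried where at most 0.05 solutions were expected by chance. This solved 16 means of 9 members. Over 300 drawn genes per arm it solved 75.7 to 83.0% of means, and 1.33 to 3.67% with exon lengths 1 base too long. Exon lengths came from GENCODE M21, in which all 80 members were found, 59 with the same coordinates. The reads per library stated in the labels lie far below the recovered totals, near the number of listed genes, and were not used. Errors of counting and library preparation are not separated, and the libraries carry no molecular identifiers.

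Named genes were the members called in any comparison, the 3 most abundant of each complex, the 2 lowest and 2 highest values per comparison among members of 5 RPKM or more, members with unadjusted p under 0.05 in 2 or more comparisons, paralog sets and members listed at 0; others named for an unadjusted p or for recovered reads were chosen after their values were seen. The values of 1 gene that this rule names are not reported here. Members and lists were chosen with earlier results of these data known. Scripts were tested on simulated data, in Python 3.11.15 with NumPy 2.4.6, pandas 2.3.3 and SciPy 1.17.1.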

Additional observations from a re-analysis of the deposited data

How the results depend on the processing

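No paired analysis was possible because the tables hold group comparisons and no value per library for both arms of a gene. For the same reason the planned edgeR and DESeq2 fits, with a replicate block and with each replicate left out, were not run. Under Bonferroni adjustment the members called were 0 after anti-CTLA-4, 0 after anti-PD-1 DANA and 1 (Ndufc2) after the combination, so Ndufc2 lost its call after the single antibodies (Bonferroni values 0.413 and 0.109), as did Atp5s and Atp5e. Restricted to a larger mean of 5 RPKM or more, with Benjamini-Hochberg adjustment over the genes that pass, 2 members were called after anti-CTLA-4 (Atp5h added; all genes 13.9%) and 7 after the combination (Cox4i1, Ndufa10, Ndufa11 and Uqcrc2 added; all genes 22.1%). Centred on genes of 20 to 100 RPKM, 5 were called after the combination (all genes 8.82%). The members' median reversed in sign after anti-CTLA-4 on library size (0.25) and centred on genes of 20 to 100 RPKM (0.18), and after anti-PD-1 DANA on library size (0.44), centred on all tested genes (0.080) and on genes of 20 to 100 RPKM (0.44). The combination's median stayed above 0 in the settings run, from 0.17 to 0.88. For the combination minus anti-CTLA-4, equal variances called 3 members where the upper bound called 0. Over all tested genes, calls after anti-CTLA-4 numbered 488 higher and 266 lower as deposited, and 1188 and 179 on library size. After anti-PD-1 DANA these were 434 and 235, and 1051 and 166. Adjusting over tested genes only gave 1616, 1596 and 2238 calls in the 3 comparisons against 754, 669 and 1343, and Bonferroni gave 27, 34 and 74. Over tested genes only, 1, 2 and 4 members were called (all genes 9.06%, 8.95% and 12.5%), with Ndufa10 added after the combination. Library size and equal variances as settings for treatment differences were added after the data were seen. Depth limits the smallest means, and the causes of these shifts were not tested.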

Other observations

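Exon sequence that a member shares with other annotated transcripts limits how firmly its count can be read, since the authors' handling of shared reads and of strand is not stated in the labels or files used. Of the 80 members, 32 shared no 50-base window with another transcript and 19 shared 10% or more. Atp5o shared 41.6% of its windows, Atp5g2 38.3% (36.7% with the pseudogene Gm10175) and Ndufb6 31.6%. Ndufc2, Atp5e, Atp5s and Ndufa10 shared none. Atpif1, the inhibitor of the ATP synthase, had log2 fold changes of 3.17 (anti-CTLA-4), 2.91 (the PD-1 antibody) and 4.17 (the combination), with an unadjusted p of 0.0209 after anti-CTLA-4, 0.0336 after anti-PD-1 DANA and 0.00232 after the combination, and was not called in any of them in the authors' deposited tables.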
